A study of Mus musculus with 4 samples.

Results

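The genes for the proteins of the cytosolic ribosome were followed through 4 RNA-seq libraries of mouse brain cortex. The genes were taken by name and type: protein-coding genes called Rpl or Rps with a number (and at most a closing a, x or l), Rplp0 to Rplp2 and Rpsa. They also had to average 50 normalised counts or more across the libraries. Of 81 genes with such a name, 76 passed, 46 of the large and 30 of the small subunit, among 39179 annotated genes and 13550 with that mean. The libraries came from BK knockout mice and from wildtype littermates, all of an F1 cross between C57Bl6/J and Sv129; BK is a potassium channel that calcium and depolarisation open. Animals were kept awake by gentle handling for 4 h from light onset or left alone, and cortex was taken at ZT4 in every group. The groups were sleep-deprived knockout (KO SD), undisturbed knockout (KO BL), sleep-deprived wildtype (WT SD) and undisturbed wildtype (WT BL), each 1 library from the pooled RNA of 4 animals. With 1 library per group there was no replicate and no test, and the intervals below cover counting error only, not differences between animals or preparations.

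A ribosome has a small subunit, which reads the messenger RNA, and a large subunit, which joins the amino acids, and most of its proteins are present in a single copy. In mammals nearly every one of these proteins is made from a single active gene, while the genome holds many processed copies of it that are annotated as pseudogenes. Their messenger RNAs are short, abundant and begin at a C followed by pyrimidines (a terminal oligopyrimidine tract), through which mTOR and Larp1 set how much of them is translated. In neurons such messengers are also found in dendrites and axons.

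The normalised counts summed to 36.9 M (M, 1e6) in KO SD, 34.7 M in KO BL, 38.7 M in WT SD and 34.5 M in WT BL, from an estimated 42.0 M, 27.7 M, 34.9 M and 30.1 M reads in the same order. WT SD stood apart from the other libraries: across the 13550 genes its log2 values correlated at 0.877 to 0.911 with theirs, which correlated at 0.956 to 0.972 among themselves. Folds went with transcript width and GC content over all genes. Group medians, and leading genes of the wildtype pair, are therefore also given after a loess correction for both ("corrected"). The group is also set beside genes of like width and GC. Kcnma1, which codes for the BK channel pore, had 491 normalised counts in KO SD, 447 in KO BL, 177 in WT SD and 614 in WT BL. A count over the whole gene says nothing of the deleted part, which the labels do not give, so it did not check the genotypes, and KO and WT stand here for the libraries so labelled. Values are relative to all RNA in a pool, so fewer cells of a type and less RNA per cell cannot be told apart.

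Ribosomal protein genes took up 1.519% of all normalised counts in KO SD (exact binomial 95% interval 1.515 to 1.523%), 1.274% in KO BL (1.270 to 1.278%), 3.684% in WT SD (3.677 to 3.690%) and 0.9949% in WT BL (0.9914 to 0.9985%). Per kilobase of transcript their median level was 8105 normalised counts in KO SD, 7229 in KO BL, 20593 in WT SD and 4642 in WT BL. The median of the other protein-coding genes lay between 385 and 396 in all 4. All 76 genes were highest in WT SD, and 60 were lowest in WT BL, 15 in KO BL and 1, Rps13, in KO SD. Over all 13550 genes 33.1% were highest in WT SD, 22.5% lowest in WT BL and 25.7% lowest in KO BL. Large-subunit genes held between 62.0 and 63.1% of the sum in each library.

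**Figure D1:**
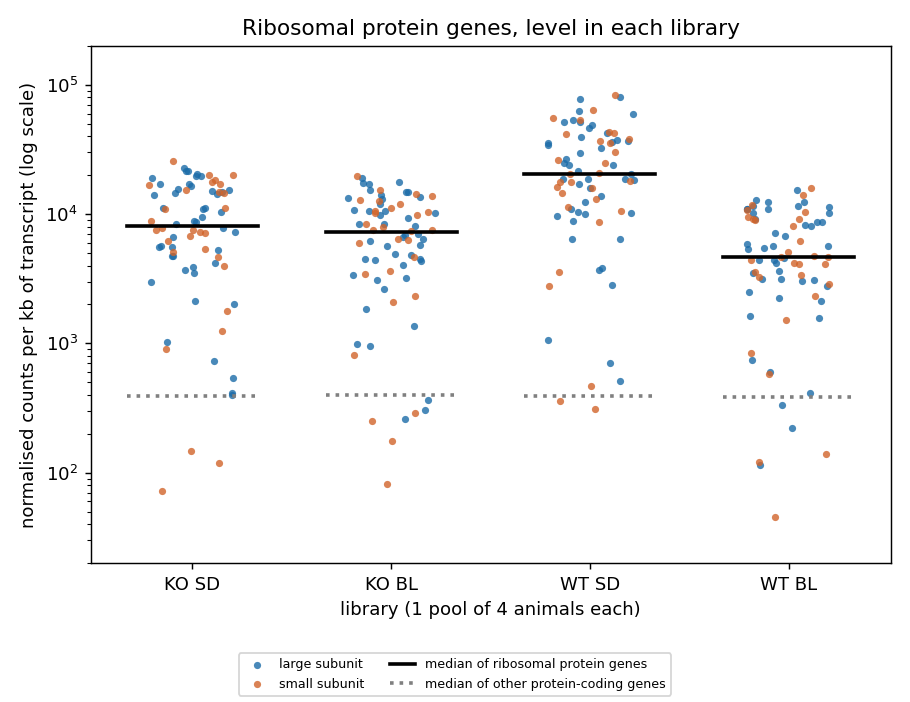
Level of each of the 76 ribosomal protein genes in the 4 libraries, as normalised counts per kb of transcript on a log scale, with blue points for large-subunit and orange for small-subunit genes; lines mark medians. The median of the ribosomal protein genes is 20593 in WT SD and 4642 to 8105 in the other libraries, while that of other protein-coding genes (dotted) stays between 385 and 396.

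Between single genes the levels per kilobase ranged widely. The highest means over the 4 libraries belonged to Rps15, needed for export of the small subunit from the nucleus, at 32970 normalised counts per kb, and to Rpl13a, which also represses translation of inflammatory transcripts after interferon, at 32019. Rpl41, the shortest of the proteins, had 30849, Rps24 29035 and Rpl26 26996. The lowest means were 151 for Rps13, 175 for Rps4l, a relative of the X-linked Rps4x, and 257 for Rps6, the substrate of S6 kinase. Rpl10a of the L1 stalk (353) and Rpl12 at the base of the P stalk (408) followed. For 4 of these 5 genes (all but Rps4l) at least 95.7% of the counts of gene and near-identical copies together stood on the copies, as described below. Just inside the mean of 50 were Rps13 (87.9), Rps4l (165) and Rps6 (211). Outside it were Rpl3l (9.88) and Rpl39l (5.71), and Rps27, Rps12 and Rpl10l were listed at 0 in every library. No gene passed through WT SD alone: without its highest library the lowest mean was 56.9.

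The wildtype pair, WT SD over WT BL, asks how sleep deprivation changes the cortex of normal animals, and every ribosomal protein transcript was higher in WT SD. All 76 genes were at least 1.5-fold higher in WT SD and none was lower, where 24.5% of all genes compared were higher by as much and 24.1% lower. Their median log2 fold was 2.14, against -0.04 over all genes, with a range from 1.05 (Rpl15) to 4.06 (Rpl36). The 46 large-subunit genes had a median of 2.16 and the 30 small-subunit genes one of 2.12. After the correction the median was 1.14 and 61 genes remained at least 1.5-fold higher, where 18.5% of all genes were, and none was lower by as much.

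The stalk of the large subunit, which recruits elongation factors, is built of Rplp0, Rplp1 and Rplp2. Rplp1 had 7288 normalised counts in KO SD, 8820 in KO BL, 31060 in WT SD and 3512 in WT BL. Rplp2 had 2283, 2538, 10920 and 1233 in the same order of libraries. Both were thus about as much higher in WT SD than in WT BL, by 3.14 (3.09 to 3.20) for Rplp1 and 3.15 (3.06 to 3.24) for Rplp2, and by 1.37 and 1.76 after the correction. Their partner Rplp0, the protein that anchors them, had 4912 in KO SD, 4956 in KO BL, 8731 in WT SD and 3158 in WT BL, a fold of 1.47 (1.40 to 1.53) in the wildtype pair and of 0.35 after the correction. It is the widest transcript of the stalk genes, at 876.5 bp against 580.7 for Rplp2 and 495 for Rplp1.

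Of the other large-subunit genes, Rpl36 (ENSMUSG00000057863, chr17:56613395-56614243, mm10) had the highest fold. It had 813 normalised counts in KO SD, 1239 in KO BL, 5032 in WT SD and 301 in WT BL. WT SD was thus 16.7-fold higher than WT BL (log2 4.06, 3.88 to 4.25; corrected 1.74), while the knockout pair lay the other way round. Rpl41 had 10750 in KO SD, 8792 in KO BL, 45490 in WT SD and 4951 in WT BL, and its log2 fold in the wildtype pair was 3.20 (corrected 1.73). Rpl28, a protein that budding yeast lacks, had 395 in KO SD, 532 in KO BL, 2071 in WT SD and 225 in WT BL, also 3.20 (corrected 1.54). Copies of Rpl28 held 89.1% of the joint counts, and with them its fold was 2.17. At the low end stood Rpl15 with 6382 in WT SD against 3085 in WT BL (1.05, 0.98 to 1.11; corrected 0.55) and Rpl22 with 6578 against 3131 (1.07, corrected 0.27). Rpl4, which lines the tunnel for the nascent chain, had 34370 in WT SD against 15720 in WT BL (1.13, corrected 1.099). Rpl5, which with Rpl11 and 5S ribosomal RNA restrains Mdm2 when ribosome assembly fails, had 3797 against 1681 (1.17, corrected 0.89). In each of these, too, WT SD held the highest of the 4 values.

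Among small-subunit genes Rps21 led. It had 4708 normalised counts in KO SD, 4157 in KO BL, 23480 in WT SD and 2003 in WT BL, which made WT SD 11.7-fold higher than WT BL (log2 3.55, corrected 1.75). Rps15 had 10770 in KO SD, 10630 in KO BL, 44430 in WT SD and 4858 in WT BL (log2 3.19 in the wildtype pair, corrected 1.254). Rpsa, also described as a laminin receptor, had 16610, 14880, 48510 and 9445 in the same order (2.36, corrected 2.53). Rps13 was the lowest, with 42.1 in KO SD, 47.8 in KO BL, 181 in WT SD and 80.9 in WT BL (1.15, 0.76 to 1.60; corrected -0.17). Its few reads gave the widest intervals together with Rps4l, which had 112 in KO SD, 166 in KO BL, 339 in WT SD and 42.5 in WT BL (2.97, 2.50 to 3.53; corrected 1.81). Its X-linked relative Rps4x had 15640, 11090, 29550 and 12240 in the same order, a fold of 1.27 in the wildtype pair.

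Ribosomal protein transcripts are short, with a median width of 719 bp (384 to 1861) against 2051 bp for protein-coding genes, and a median GC content of 52.0% against 50.9%. Short genes in general were higher in WT SD. Each gene was therefore set beside the 25 protein-coding genes nearest to it in width and GC, 1060 different genes in all. The median over the ribosomal protein genes of their neighbours' median fold was 1.14 in the wildtype pair, and the genes lay above their neighbours by a median of 0.97 on the log2 scale. Of the 76 genes, 71 were above their neighbours, 58 of them by at least 1.5-fold, and none was below by as much. No such count was made for other genes, here or in the other comparisons, so these counts have no background share. The greatest excess was that of Rpsa, whose neighbours stood at -0.20 against its own 2.36. Next came Rps20 (2.28, neighbours -0.16), Rps7 (2.63, neighbours 0.32) and Rpl35a (2.60, neighbours 0.46), of which Rps20 and Rpl35a are named after their values were seen. Of the 5 genes below their neighbours the lowest were Rpl23a, which lies at the tunnel exit (1.26, neighbours 1.55), Rpl11 (1.62, neighbours 1.79) and Rps13 (1.15, neighbours 1.28). Across the 76 genes the rank correlation of fold with width was -0.385 at deposited and 0.351 at corrected values, against -0.493 over all 13550 genes at deposited values. These points share the same 2 libraries and are given as a description.

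**Figure D2:**
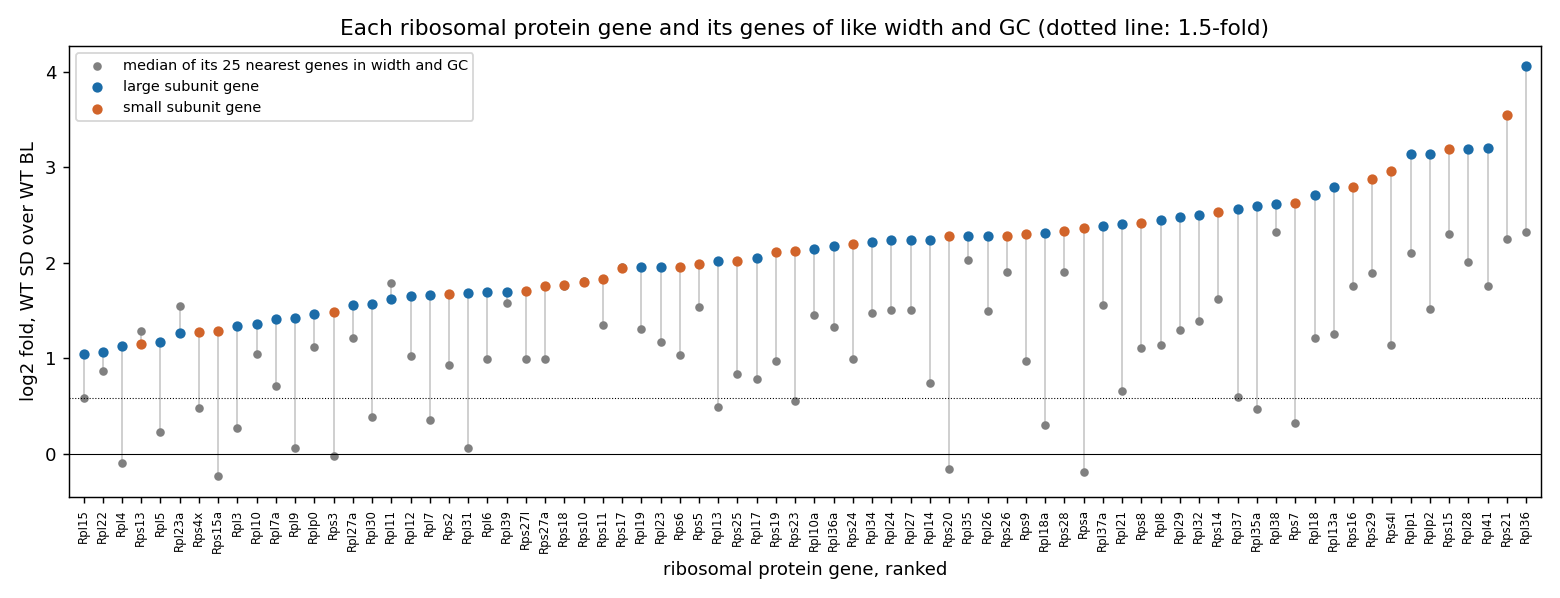
Log2 fold of WT SD over WT BL for the 76 ribosomal protein genes in ascending order (blue, large subunit; orange, small subunit), with the median fold of the 25 protein-coding genes nearest to each in width and GC in grey, joined by a line. All coloured points lie above the dotted line at 1.5-fold, and 71 of the 76 lie above their grey point.

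The starts of the transcripts are shown because the pyrimidine tract is the feature these genes are known to share, and because it lets the highest and lowest folds be set side by side. RefSeq promoters (GRCm38.p6) were found for 55 of the 76 genes. Each line holds the 15 bases before and the 15 bases from the annotated start, 5′ to 3′, and capitals mark a run of a C and at least 4 further C or T that begins within 5 bases of the start. Where a gene has several annotated starts, the one with the longest run is shown. The first 5 genes had the highest folds in the wildtype pair among those with a promoter, the last 5 the lowest.
Rps21, chr2:180257364-180257393, plus strand: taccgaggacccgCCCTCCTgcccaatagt
Rpl41, chr10:128549154-128549183, minus strand: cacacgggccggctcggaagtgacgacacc
Rpl28, chr7:4792950-4792979, plus strand: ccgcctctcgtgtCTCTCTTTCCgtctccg
Rps15, chr10:80292416-80292445, plus strand: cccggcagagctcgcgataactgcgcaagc
Rplp2, chr7:141447636-141447665, plus strand: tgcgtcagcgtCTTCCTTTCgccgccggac
Rpl5, chr5:107900513-107900542, plus strand: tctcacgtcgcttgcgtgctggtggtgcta
Rps13, chr7:116334176-116334205, minus strand: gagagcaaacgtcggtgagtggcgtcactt
Rpl4, chr9:64173372-64173401, plus strand: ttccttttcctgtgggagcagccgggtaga
Rpl22, chr4:152324421-152324450, plus strand: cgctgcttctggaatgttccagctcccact
Rpl15, chr14:18270972-18271001, minus strand: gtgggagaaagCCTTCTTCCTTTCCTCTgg

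The run was found at 3 of the 5 starts with the highest folds and at 1 of the 5 with the lowest, and the lowest of all, Rpl15, had the longest of these runs, 17 bases. Annotated starts can lie some bases off the used one, so a missing run says only that these letters are not in the window. Over all 55 genes 49.1% had the run, against 21.2% of all genes in the promoter table. Genes with it had a median fold of 2.12 in the wildtype pair (n = 27) and genes without it one of 2.07 (n = 28). Within 250 bases before and 50 after the start, on either strand, CCGGAAG, the core of sites for ETS factors, was present in 43.6% of the 55 genes against 9.93% of all. For GGGCGG, the letters of a GC box, the shares were 63.6% against 38.2%. For AANATGGC, the core of sites for YY1, they were 18.2% against 6.96%, and for TATAAA 10.9% against 15.7%. Genes with CCGGAAG had a median fold of 1.99 (n = 24) and those without it 2.12 (n = 31). The 200 bases before the start of Rps21 (chr2:180257179-180257378, plus strand) are shown because this gene had the highest fold of any with a promoter and holds CCGGAAG more than once, here in capitals.
Rps21: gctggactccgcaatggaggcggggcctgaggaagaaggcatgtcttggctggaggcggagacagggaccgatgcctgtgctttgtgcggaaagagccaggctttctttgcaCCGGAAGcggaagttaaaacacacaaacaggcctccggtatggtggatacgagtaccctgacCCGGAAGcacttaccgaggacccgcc

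The same question was put to the animals labelled knockout by the pair KO SD over KO BL, where most ribosomal protein genes differed little. Their median log2 fold was 0.28, against -0.04 over all genes, and 19 genes were at least 1.5-fold higher where 16.2% of all genes were. Only Rpl36 and Rps6 were lower by as much, where 16.4% of all genes were. The corrected median was 0.27, with 15 genes higher (7.79% of all) and 1 lower (5.34% of all). That 1 gene was of the small subunit, so Rpl36 was then no longer lower by 1.5-fold. The copies of that small-subunit gene added 10% or more to its counts. Beside genes of like width and GC the excess had a median of 0.23 on the log2 scale, with 56 genes above and 20 below their neighbours. KO SD also held the largest share of mitochondrially encoded transcripts, 19.4% against 12.7% in KO BL, and leaving these out the ribosomal protein share was 1.88% in KO SD against 1.46% in KO BL.

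Rps16, whose tail reaches the transfer RNA in the P site, had the highest fold in the knockout pair, with 542 normalised counts in KO SD against 150 in KO BL (1.85, 1.57 to 2.15). Rps24, one of the genes mutated in Diamond-Blackfan anaemia, had 16890 in KO SD against 7883 in KO BL (1.10, 1.06 to 1.14). Rpl31, at the tunnel exit, had 614 against 293 (1.07), Rpl15 3665 against 1830 (1.002) and Rpl36a, near the E site, 5446 against 2999 (0.86). Rpl15-ps3, an identical copy of Rpl15, had 4817 in KO SD against 5119 in KO BL. Rpl31-ps8, an identical copy of Rpl31, had 14740 in KO SD against 8728 in KO BL. Lowest of the 76 genes was Rps6 with 121 in KO SD against 237 in KO BL (-0.97, -1.305 to -0.65), then Rpl36 with 813 against 1239 (-0.61, -0.74 to -0.48). Rps4l had -0.56, Rps29 -0.44 and Rpl28 -0.43. The stalk genes stood at -0.28 for Rplp1, -0.15 for Rplp2 and -0.01 for Rplp0, which turned to 0.036 for Rplp1 and 0.44 for Rplp0 after the correction. In all, 18 genes, each higher in WT SD than in WT BL, were lower in KO SD than in KO BL. At deposited values 26.1% of all genes had that pattern, so the 18 of 76 are near the background. After the correction 17 had it, but the share of all genes was not counted at corrected values.

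**Figure D3:**
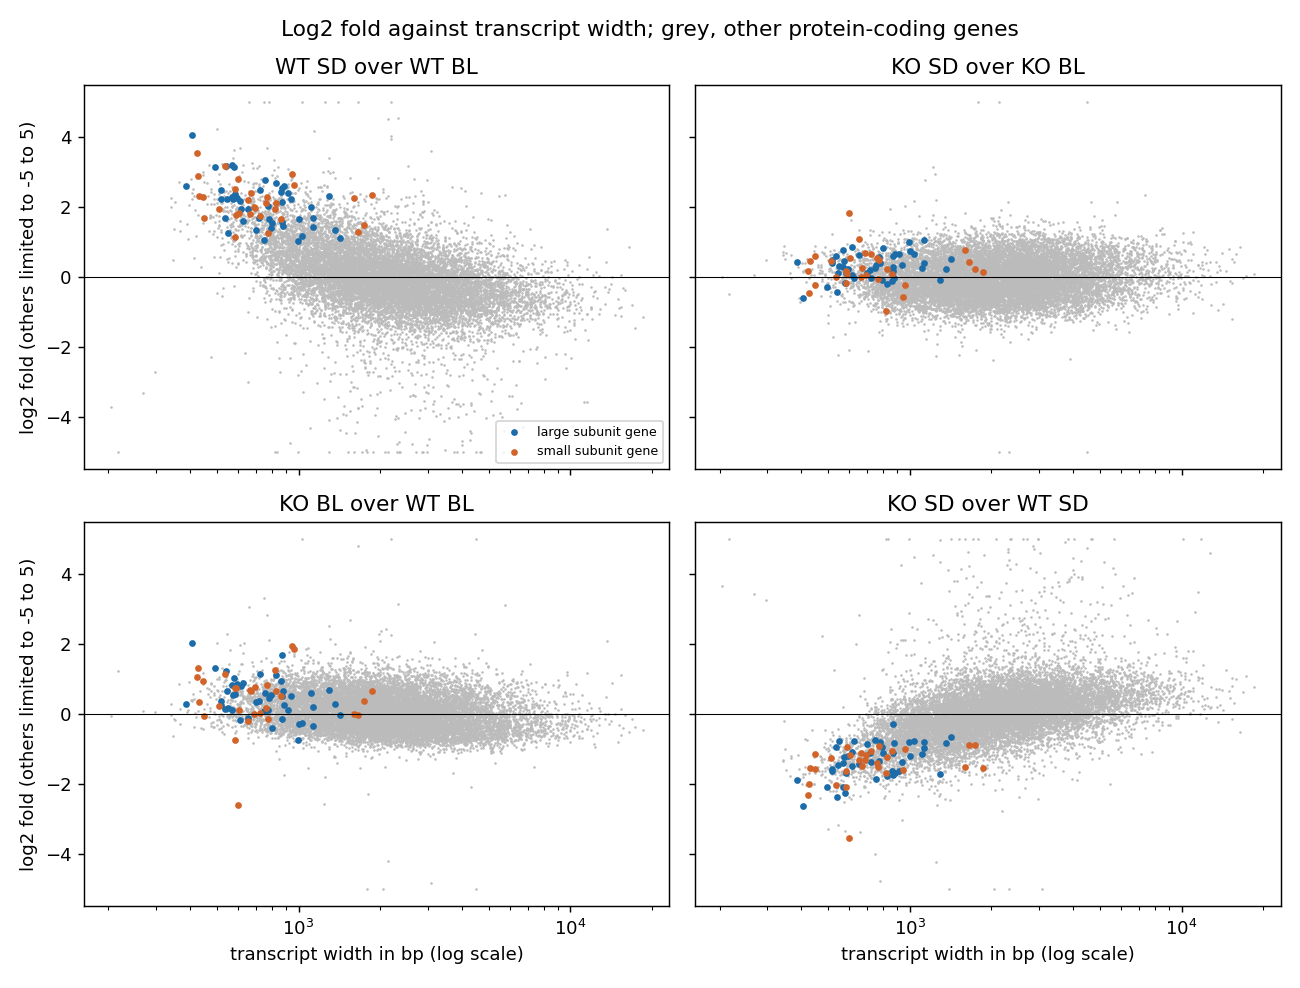
Log2 fold in the 4 comparisons against transcript width in bp (log scale), with ribosomal protein genes in blue (large subunit) and orange (small subunit) and other protein-coding genes in grey. In the upper left panel (WT SD over WT BL) most short genes lie above 0 (861 of the 1060 genes of like width and GC) and the ribosomal protein genes between 1.05 and 4.06; in the lower right (KO SD over WT SD) they lie between -3.54 and -0.29; in the other 2 panels they spread on both sides of 0.

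In the undisturbed pools the knockout was compared with the wildtype (KO BL over WT BL). Ribosomal protein genes had a median log2 fold of 0.49, against -0.01 over all genes, with 32 genes at least 1.5-fold higher and 3 lower, where 16.4% and 10.7% of all genes were. The corrected median was 0.25, with 16 genes higher and 4 lower (3.19% and 3.48% of all). GC content went with these folds across all genes (rank correlation 0.805) and among the 76 (0.645). Beside genes of like width and GC the median excess was 0.31, and 65 genes were above their neighbours. The highest corrected fold was 1.08 among large-subunit and 1.95 among small-subunit genes. The 1.95 was that of a gene whose copies added 10% or more. Over the genes with copies under 10% the highest corrected fold was 1.205. At deposited values Rpl36 was 2.04 higher (1239 in KO BL against 301 in WT BL), Rps4l 1.94 (166 against 42.5) and Rps7 1.86 (2017 against 555). Rpl10a (1.68) and Rplp1 (1.33) came next. Copies held 85.1% of the joint counts of Rps7 and 95.7% of those of Rpl10a, and with them these folds were 0.28 and 0.25. Rps16 stood far below the others at -2.59, with 150 in KO BL against 909 in WT BL, and Rpl15 (-0.75) and Rps13 (-0.75) were the other genes lower by at least 1.5-fold. Rpl27a (-0.40) and Rpl31 (-0.36) completed the lowest 5; with their copies, which held 70.4% and 96.4% of the joint counts, these were at 0.088 and 0.067.

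After sleep deprivation the same comparison of genotypes lay the other way (KO SD over WT SD). All 76 genes were lower in KO SD, 75 of them by at least 1.5-fold where 21.1% of all genes were, and none was higher by as much (19.8% of all). The median log2 fold was -1.34, against 0.02 over all genes. The corrected median was -0.59, with 39 genes lower (12.7% of all) and 1 higher (14.5% of all), Rpl10a, which turned to 0.75; in all, 10 genes were then above 0. Beside genes of like width and GC the median difference was -0.45, and 62 genes lay below their neighbours. Rps16 was lowest (542 in KO SD against 6327 in WT SD, -3.54), then Rpl36 (813 against 5032, -2.63), Rpl28 (-2.39), Rps21 (4708 against 23480, -2.32) and Rplp2 (-2.26). Nearest to 0 were Rpl10a (361 against 443, -0.29), Rpl4 (21790 against 34370, -0.66), Rpl22 (-0.74), Rpl23a (-0.77) and Rpl11 (-0.77). Most joint counts of Rpl10a stood on its copy Rpl10a-ps1, which had 5492 in KO SD against 13500 in WT SD. With copies added, no gene stood nearer to 0 than -0.63. Of the 76 genes, 60 were higher in KO than in WT without sleep deprivation and lower with it. At deposited values 31.1% of all genes had that pattern. After the correction 55 of the 76 had it, but the share of all genes was not counted at corrected values. The comparisons with and without sleep deprivation share no library, but no test of the difference was possible.

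The difference of responses, KO SD over KO BL minus WT SD over WT BL on the log2 scale, was below 0 for all 76 genes (49.3% of all genes), with a median of -1.74 and 64 genes at -1 or lower, where 19.2% of all genes were. At 1 or higher there was no ribosomal protein gene (16.6% of all). After the correction the median was -0.81 and 27 genes were at -1 or lower (5.56% of all), while 8.19% of all genes were at 1 or higher; 7 genes were then above 0, up to 0.61 for Rpl15. Before the correction Rpl36 had the lowest difference (-4.67), then Rpl28 (-3.62, with its copies -2.27), Rps4l (-3.53), Rplp1 (-3.42) and Rps21 (-3.37). After it the lowest difference was -1.93 among large-subunit and -2.555 among small-subunit genes. The next values are again those before it. Rpl15 was nearest to 0 (-0.05), with folds of 1.002 in the knockout and 1.05 in the wildtype pair, followed by Rpl5 (-0.52), Rpl31 (-0.62), Rpl4 (-0.62) and Rpl27a (-0.71). Most joint counts of Rpl5, Rpl31 and Rpl27a stood on copies. Rpl31-ps8 had 14740 in KO SD, 8728 in KO BL, 34480 in WT SD and 8233 in WT BL. In the same order Gm7536, a copy of Rpl27a, had 7567, 5937, 21960 and 4777, and Gm15500, a copy of Rpl5, 17280, 7902, 37460 and 10530. With copies added, the difference nearest to 0 was -0.62. WT SD, in which all 76 genes were highest, was also the library that stood apart over all genes, and with 1 pool per group the state and the library cannot be told apart.

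**Figure D4:**
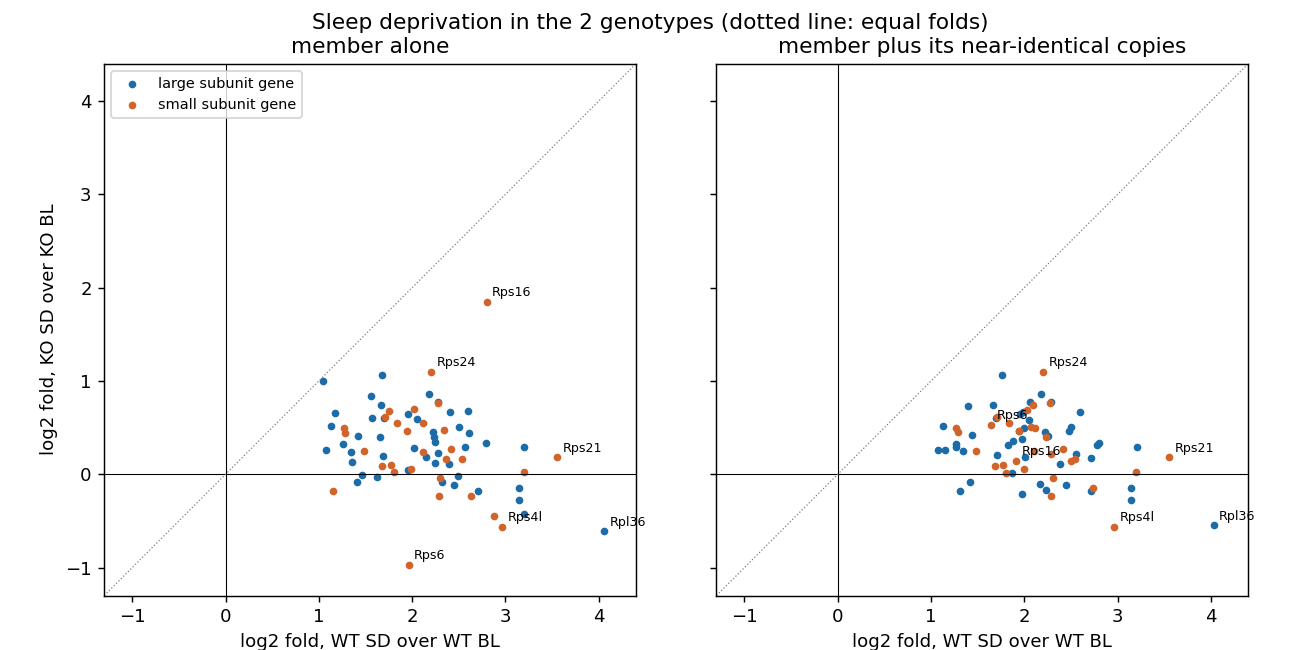
Log2 fold of KO SD over KO BL against WT SD over WT BL for the 76 ribosomal protein genes, counted alone (left) and together with their near-identical copies (right); blue, large subunit; orange, small subunit. All points lie right of 1 and below the dotted line of equal folds, and Rps16 and Rps6, the extremes of the knockout pair on the left at 1.85 and -0.97, move to 0.14 and 0.53 on the right.

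Near-identical copies bear on many of these values. Under a threshold of 95% identity over at least 80% of the copy, 280 annotated copies were found for 63 of the 76 genes, and for 17 genes the copies held more counts than the gene itself. In sum the copies held 20.2 to 22.1% of the counts of genes and copies together in the 4 libraries. Rps16 and the pseudogene Rps16-ps2 (chr5:129128077-129128517) are identical over 441 bases, so a read from inside that stretch matches both. Rps16-ps2 had 5314 normalised counts in KO SD, 5160 in KO BL, 7222 in WT SD and 2723 in WT BL. Gene and copies together had log2 folds of 0.14 in the knockout pair, 1.91 in the wildtype pair, 0.55 for KO BL over WT BL and -1.22 for KO SD over WT SD. The values of Rps16 alone were 1.85 in the knockout pair and -2.59 for KO BL over WT BL.

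Rps6 (chr4:86854660-86857412) and Rps6-ps4 (chr2:75191073-75191822) are identical over 750 bases, and 98.6% of their joint counts stood on copies. Rps6-ps4 had 12900 normalised counts in KO SD, 8767 in KO BL, 27570 in WT SD and 8896 in WT BL. The joint log2 fold of the knockout pair was 0.53, where Rps6 alone had -0.97. Rps13 (98.9% on copies), Rpl12 (96.7%), Rpl31 (96.4%) and Rpl10a (95.7%) were of the same kind. Summed with its copies, Rps13 had log2 folds of 2.23 in the wildtype pair and 0.25 for KO BL over WT BL, where alone it had 1.15 and -0.75. Rpl15 with its copies had 0.20 for KO BL over WT BL and a difference of responses of -0.98, where alone it had -0.75 and -0.05. Rps12, listed at 0, had copies that together held 6559 in KO SD, 4699 in KO BL, 22443 in WT SD and 3103 in WT BL. Rps27, also at 0, had copies with 11413, 7380, 28881 and 6060 in the same order.

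The stretches below, from the transcripts in GENCODE M21 (GRCm38), set a gene beside its copy; capitals mark bases that differ within a pair. For Rps16 the first 60 coding bases are shown, which Rps16-ps2 holds without a difference. Rpl14 (98.9% identity, coding bases 364 to 423 shown) and Rps23 (97.0%, coding bases 175 to 234) have copies that differ in places. Rpl14 and its copy have 4 mismatches and 3 gaps over 656 aligned bases, Rps23 and its copy 11 and 2 over 429. The 60 coding bases with the most mismatches are shown for both. A read from a stretch without a difference still matches gene and copy alike.
Rps16 and Rps16-ps2: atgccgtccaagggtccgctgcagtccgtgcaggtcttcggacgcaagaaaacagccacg
Rpl14: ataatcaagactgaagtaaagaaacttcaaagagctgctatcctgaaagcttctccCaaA
Rpl14-ps1: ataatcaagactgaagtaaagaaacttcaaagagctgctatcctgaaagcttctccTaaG
Rps23: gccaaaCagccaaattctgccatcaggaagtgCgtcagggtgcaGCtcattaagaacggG
Rps23-ps: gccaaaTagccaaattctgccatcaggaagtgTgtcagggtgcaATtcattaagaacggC

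Rpl14-ps1, with 168 normalised counts in WT SD against 1126 in WT BL, went against its gene, which had 25090 against 5303. As most of the aligned bases are the same, how reads were split between the 2 was not tested. Rps23-ps went with its gene, at 15660 in WT SD against 3697 in WT BL, beside 13560 against 3118 for Rps23. Counted with their copies, the 76 genes kept their direction as a group. The median log2 fold was 2.06 in the wildtype pair with all 76 at least 1.5-fold higher, and 0.30 in the knockout pair with 16 higher and none lower. It was 0.37 for KO BL over WT BL with 28 higher and none lower, and -1.32 for KO SD over WT SD with all 76 lower. The SD over genes was smaller with the copies in each comparison, most so for KO BL over WT BL (0.458 against 0.673 without them). The 49 genes whose copies added less than 10% had medians of 2.20, 0.27, 0.52 and -1.37 in the same 4 comparisons.

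**Figure D5:**
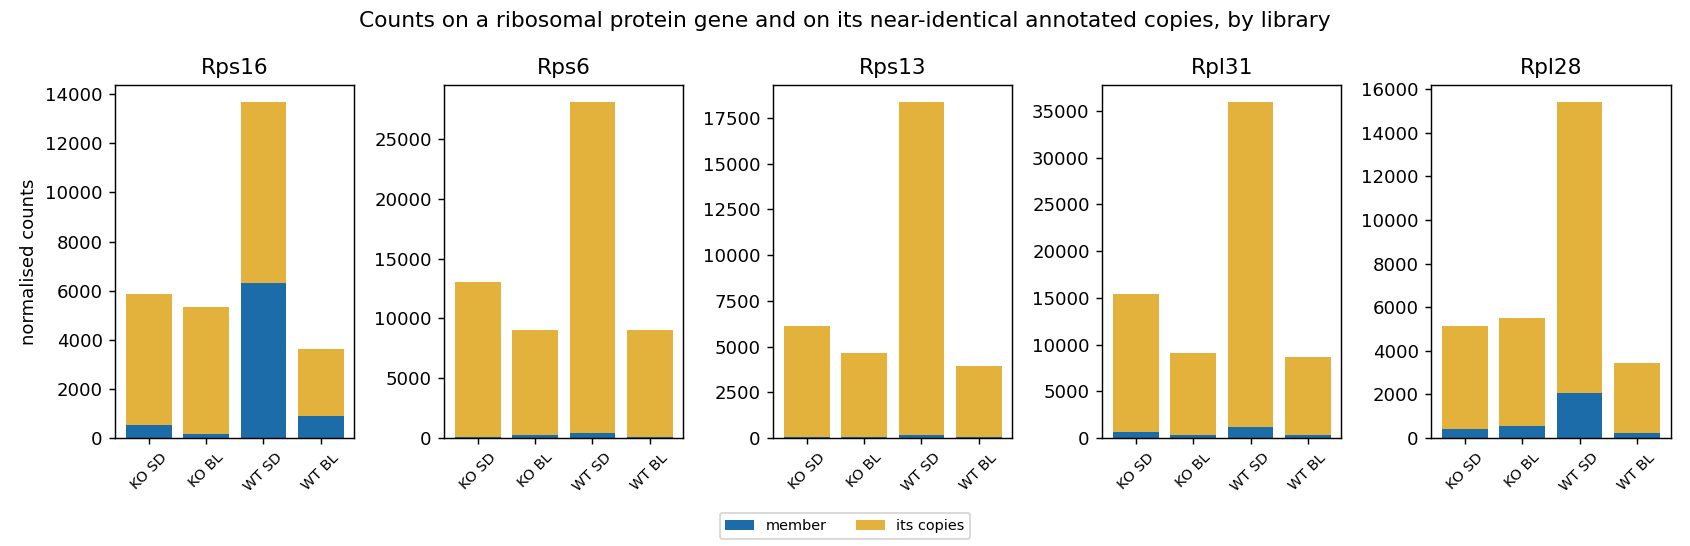
Normalised counts on 5 ribosomal protein genes (blue) and on all their near-identical annotated copies (yellow, stacked) in the 4 libraries. For Rps6, Rps13 and Rpl31 nearly all counts stand on copies, and for Rps16 the gene's own part is 150 in KO BL and 6327 in WT SD while Rps16-ps2 has 5160 and 7222.

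Some genes for ribosomal proteins have names outside the rule. Fau, which makes Rps30 as a fusion, had 461 normalised counts in KO SD, 628 in KO BL, 1750 in WT SD and 188 in WT BL, a log2 fold of 3.21 in the wildtype pair. Gm9843, an identical copy of Fau, had 5449 in KO SD, 4957 in KO BL, 21770 in WT SD and 2806 in WT BL. In the wildtype pair Rpl36al stood at 2.10, Rps27rt at 2.25, Rpl22l1 at 1.32 and Rps3a1 at 0.86. Rps27rt is not separate from the copies of Rps27 given above, as it holds nearly all of their counts. Rpl7l1, which acts in ribosome assembly, had 0.00 in the wildtype pair. Of 24 pseudogenes named after ribosomal proteins and with a mean of 50 or more, WT SD had 23 higher and 1 lower (median 2.06). Of all genes 24.5% were higher and 24.1% lower. After the correction 12 were higher and 1 lower (median 0.59), against 18.5% and 18.2% of all. Some passed the mean through WT SD, such as Rpl9-ps7 with 275 there and 0 in WT BL. Others, such as Rps16-ps2 and Rps6-ps4, match their gene without a difference, so this list is not separate from the 76 genes.

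Other lists for protein synthesis were nearer to 0 in the wildtype pair. Their counts stand beside shares over all genes of 24.5% at least 1.5-fold higher and 24.1% lower by as much. Of 20 transcripts of elongation factors and other messengers known for terminal oligopyrimidine tracts, 9 were higher and none lower, with a median log2 fold of 0.56 (corrected 0.35). There Eef1d (1.94), Eif3k (1.63), Eif3f (1.56) and Naca (1.55) were highest, and Gnb2l1, the Rack1 scaffold on the small subunit, had 1.51. The elongation factors themselves stood at 0.66 for Eef1a1 (128600 in WT SD against 81370 in WT BL) and 0.11 for Eef2 (20750 against 19190). Of 33 ribosome assembly factors 14 were higher and 2 lower (median 0.33, corrected 0.36), from Nhp2 (2.16) to the large ATPase Mdn1 (-1.36). Of 15 genes of the RNA polymerase I machinery, which makes ribosomal RNA, 5 were higher and none lower (median 0.27, corrected 0.31), with Taf1c at 2.06. Of 16 genes of mTOR signalling and its outputs 2 were higher and 3 lower (median -0.20, corrected 0.071), with Rps6kb2 at 1.11 and Eif4ebp2 at -3.15. Larp1, which binds the tract, had 3477 in KO SD, 4226 in KO BL, 4144 in WT SD and 3377 in WT BL.

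Sets of other short genes lay closer to the ribosomal protein genes. Among all genes 24.5% were at least 1.5-fold higher in the wildtype pair and 24.1% lower, and 18.5% were higher after the correction. The 76 mitochondrial ribosomal protein genes had a median log2 fold of 1.2 in the wildtype pair with 59 higher and 1 lower, and a corrected median of 0.58 with 38 higher. The 79 nuclear-encoded subunits of the respiratory chain had 1.63 with 66 higher and none lower, and a corrected median of 0.54. In the knockout pair these lists had medians of 0.10 and 0.15, and for KO SD over WT SD -0.99 and -1.23. No test set these lists against the cytosolic ribosomal protein genes.

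Marker lists of cell types, and RNAs that stay in the nucleus, were followed in the same comparisons. Over all genes 24.5% were at least 1.5-fold higher and 24.1% lower in the wildtype pair, and 16.2% and 16.4% in the knockout pair. For KO BL over WT BL these shares were 16.4% and 10.7%, and for KO SD over WT SD 19.8% and 21.1%. With so few markers per list, several counts lay near these shares. Of 10 microglial markers 5 were at least 1.5-fold higher in WT SD than in WT BL and none lower, with summed levels of 26076 against 19207 normalised counts. Of 7 oligodendrocyte markers 4 were higher and none lower (71449 in WT SD against 37546 in WT BL), and 5 were higher in KO BL than in WT BL (64676 against 37546). Of 8 astrocyte markers 5 were higher in KO SD than in KO BL (222597 against 118698), and all 5 red blood cell genes were lower there (12182 against 42136). In the wildtype pair 3 astrocyte markers were higher and 2 lower, and 1 red blood cell gene was higher and 2 lower. After the correction all 5 red blood cell genes were lower in both pairs, with medians of -2.145 in the wildtype and -1.75 in the knockout pair. Of the astrocyte markers 4 were then higher in the wildtype and 2 in the knockout pair, with none lower. Of 6 nuclear-retained RNAs, such as Malat1 (5937 in KO SD against 2840 in WT SD) and Meg3 (42470 against 19090), 5 were higher in KO SD than in WT SD and none lower, with sums of 106551 against 49652. In the wildtype pair 1 was higher and 2 lower. The markers of excitatory neurons, the main neurons of the cortex, summed to 218313 in KO SD, 280358 in KO BL, 202372 in WT SD and 236469 in WT BL. Those of inhibitory neurons summed to 27104, 29354, 42163 and 30342 in the same order, with 3 of 6 higher and 1 lower in WT SD than in WT BL. Endothelial markers (9041, 9334, 9928 and 8010) had 1 of 7 higher and 2 lower there, those of pericytes, smooth muscle and meninges (6350, 4756, 4522 and 5906) 0 of 6 higher and 2 lower, and those of choroid plexus and ependyma (728, 257, 138 and 193) 1 of 3 higher and 1 lower. None of the markers compared was at 0 in any library. The part of any of these in the levels of ribosomal protein genes was not tested.

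In the authors' deposited tables, whose p-values came from single libraries, 40 of the 76 genes were higher in WT SD than in WT BL at an adjusted p under 0.05, where 2.83% of all genes listed were. In the authors' table for KO SD over WT SD 5 were lower, where 0.847% of all genes were, and none was higher (1.84% of all). In the authors' table for KO SD over KO BL none of the 76 was past that threshold (0.116% of all genes higher, 0.111% lower), and in the authors' table for KO BL over WT BL none was either (0.0959% higher, 0.0734% lower). Of the 76 genes 36 share exon sequence with another annotated gene, among them Rpl28, Rplp2, Rpsa, Rps13 and Rpl15, and reads from such exons could belong to either gene. The 40 without such overlap had medians of 2.24, 0.27, 0.56 and -1.42 in the 4 comparisons in the order given above.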

How the data were processed

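Per the labels, total RNA from cortex was extracted with a column kit, treated with DNase, pooled over 4 animals per group and sequenced on a HiSeq2500. The submitters' processing notes name RSEM 1.2.19, edgeR, mm10 and GRCm38; the aligner is not given in the sources used here. The signal deposited by the authors is an estimated count per gene divided by 1 factor per library. It was not whole, so count models could not be used. The transcript width and the GC fraction of each gene are as deposited by the authors. The log2 ratios in the authors' deposited tables were turned round here, and the adjusted p-values the authors deposited are quoted as theirs.

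The value of 1 read was taken as the commonest low value (0.878 in KO SD, 1.25 in KO BL, 1.11 in WT SD and 1.15 in WT BL), which gave estimated reads and 95% intervals (exact binomial, for counting error). A floor of 3 reads is 2.63, 3.76, 3.33 and 3.44 normalised counts in these libraries. Log2 folds were taken on the log2(value + 1) scale over genes with a mean of at least 50 and counted from 1.5-fold. The correction was a loess fit in R 4.3.3 (span 0.3, degree 2, symmetric) on GC and log10 width. Neighbours were the 25 nearest protein-coding genes in log10 width and GC, each scaled by its SD. Copies were found with BLAST 2.17.0 among GENCODE M21 transcripts. Exon overlap was counted on either strand. The steps were tested on simulated data.

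The members, gene lists, comparisons and alternatives were chosen with earlier results of these data known. The thresholds for copies, the motifs and the sequences shown were chosen after seeing the values. The genes named are, in each comparison and for the difference of responses, the 5 highest and 5 lowest, the 5 highest and lowest per kb, those around the mean of 50, the stalk genes, Rpsa, Rps6, the pair Rps4l and Rps4x, and from other lists up to 4 of the largest folds; others are Larp1, Eef1a1, Eef2, Gnb2l1, Rpl14, Rps23, Rps20, Rpl35a, Malat1 and Meg3, named after their values were seen. A gene of the list of ribosomal protein genes outside the name rule, and that list's summary, are not reported here.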

Additional observations from a re-analysis of the deposited data

Results flagged for a closer look

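The genotypes differed in opposite directions in the 2 states. The median log2 fold of ribosomal protein genes was 0.49 (0.4881) for KO BL over WT BL and -1.34 (-1.337) for KO SD over WT SD. The difference was not tested. Over the genes, the lower and upper counting bounds of single genes had medians of 0.38 and 0.57, and of -1.365 and -1.3. They are not intervals of the group medians, and they leave out the variation between pools.

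Rpl36 and Rps6 were at least 1.5-fold lower in KO SD than in KO BL while higher by as much in WT SD than in WT BL, each without a test of the difference. Rpl36 had log2 folds of -0.61 in the knockout and 4.06 in the wildtype pair, and with its copies -0.55 and 4.03. After the correction, however, Rpl36 was no longer lower by 1.5-fold in the knockout pair. The lowest large-subunit gene then stood at -0.22, and the 1 gene still lower by as much was of the small subunit, at -0.89. That small-subunit gene was among those whose copies added 10% or more, and none with copies under 10% was lower by 1.5-fold. Rps6 had -0.97 in the knockout and 1.96 in the wildtype pair, and with its copies, which held 98.6% of the joint counts, 0.53 and 1.64.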

How the results depend on the processing

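No median over the ribosomal protein genes changed sign under the alternatives tried. The loess correction gave medians of 1.14 for WT SD over WT BL, 0.25 for KO BL over WT BL, -0.59 for KO SD over WT SD and -0.81 for the difference of responses, with 1 gene lower for KO SD over KO BL, 16 higher for KO BL over WT BL, and 1 higher and 39 lower for KO SD over WT SD. It turned the sign of 1 gene in the wildtype pair, 16 in the knockout pair, 13 for KO BL over WT BL and 10 for KO SD over WT SD. Among named genes that were at least 1.5-fold apart before it, these were Rps13 in the wildtype pair (-0.17), Rplp0 for KO BL over WT BL (-0.0063) and, for KO SD over WT SD, Rpl11 (0.26), Rpl12 (0.056), Rpl23a (0.12) and Rplp0 (0.081). Scaling to the same total moved the median of all genes by -0.167 in the wildtype pair; the ribosomal protein medians were then 1.97 for WT SD over WT BL, 0.19 for KO SD over KO BL (12 genes higher) and -1.27 for KO SD over WT SD. With copies added, chosen after seeing the data, the medians were 0.37 for KO BL over WT BL and -1.61 for the difference of responses, no gene was lower by 1.5-fold (0 of 76) for KO SD over KO BL or KO BL over WT BL, and the difference from genes of like width and GC was -0.42 for KO SD over WT SD. Copies turned 4 genes in the knockout pair and 8 for KO BL over WT BL; of those named and at least 1.5-fold apart alone, these were Rpl15 (0.20), Rps13 (0.25) and Rps16 (0.55) for KO BL over WT BL and Rps6 (0.53) for KO SD over KO BL. Over the 49 genes with copies under 10%, also chosen after seeing the data, 49 were higher in the wildtype pair, 11 higher and 1 lower in the knockout pair, 20 higher and 0 lower for KO BL over WT BL and 49 lower for KO SD over WT SD, and the excess over like genes was 1.11 in the wildtype pair. Over the 40 genes without a shared exon the medians were 2.24 in the wildtype pair, -1.42 for KO SD over WT SD and -1.91 for the difference of responses, 40 were higher in the wildtype pair, 10 higher in the knockout pair, 19 higher and 1 lower for KO BL over WT BL and 40 lower for KO SD over WT SD, and the differences from like genes were 0.41 for KO BL over WT BL and -0.49 for KO SD over WT SD; these smaller counts follow from fewer genes. The difference from like genes was -0.42 with 10 neighbours for KO SD over WT SD, 1.13 and -0.53 with 100 neighbours and 1.15 and -0.61 without a filter for the wildtype pair and KO SD over WT SD. A pseudocount of 10 and a mean of 10 moved no median or count by more than the margin allowed for counting error. Where not given, the cause was not tested. No paired analysis was possible because each group had 1 library and no replicate number, and for the same reason no replicate could be left out. Depth limits Rps13, Rps4l and Rps6, whose intervals are the widest.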
